A study of Mus musculus with 3 samples.

Results

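Gene expression in the heart of mice that had abdominal aortic constriction and then dapagliflozin (AAC + DAPA) was set against that of sham-operated mice, to describe what still separated the treated heart from one that was never constricted. All mice were wild-type C57BL/6, and are labelled male and 10 weeks old. By the methods, heart RNA was taken after 12 weeks of treatment, which the labelled age of 10 weeks does not match. In AAC, a silk tie narrows the aorta in the abdomen, and the left ventricle has to pump against more pressure. In the sham group the silk was passed and taken out with no ligature, and the methods give saline as its treatment, while the AAC + DAPA group drank dapagliflozin, which blocks SGLT2, the cotransporter that takes up glucose with sodium in the kidney, at 25 mg/kg per day for 12 weeks after AAC. The series holds 3 microarrays of heart RNA, 1 for each of sham, AAC and AAC + DAPA. The difference reported here is AAC + DAPA minus sham, and the AAC array, from constricted mice on saline, is given only as a level beside the genes named. Constriction and drug differ together between the compared groups, so their parts cannot be told apart. The sources used here do not say whether RNA of several mice was pooled on an array or at which hour hearts were taken.

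Genes were described where the higher of both arrays lay above the median of that array, which was 5.24 for sham and 5.23 for AAC + DAPA on the log2 scale of the deposited values. This left 9679 genes of 18675 outside the X and Y chromosomes and of 19505 measured in all. Just inside this limit stood Adgre4, at 5.24 on both arrays, and Clec4a3, at 4.88 in sham and 5.24 in AAC + DAPA. Just outside stood Bcl2a1d, at 5.23 on both arrays, and Clca3a1, at 4.50 and 5.23. Each group has 1 array, so no difference has a replicate check and none was tested. For the 40 genes outside X and Y with several probes, the difference varied within a gene by an SD of 0.21 (log2), a spread that holds probes and no animals. The deposited values of sham and AAC + DAPA were identical, to 2 decimals, for 24.1% of the genes described. Defining markers of heart muscle were high on both arrays, with a median of 17.55 (log2) over 11 genes in each. All arrays are labelled male, but Y-linked genes were low on both arrays compared. Eif2s3y stood at 2.50 in sham and 2.72 in AAC + DAPA, both under the 5th percentile of their array (3.02), and 0 of 32 Y-linked genes differed by 1.5-fold between them. Sham and AAC + DAPA here therefore mean the arrays labelled so. Where 3 levels of a gene follow each other they are those of sham, AAC and AAC + DAPA, and where 2 do they are those of sham and AAC + DAPA, all in log2.

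A heart under pressure thickens its muscle and re-uses genes of the fetal heart, among them the natriuretic peptides and the beta isoform of myosin heavy chain. It also draws less of its energy from fatty acids, whose enzymes are controlled by the receptor PPARα and its coactivator PGC-1α. Heart muscle cells hold a circadian clock of their own, in which activators switch on repressors that act back on them, and this clock sets the daily course of many metabolic genes.

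Across the genes described, 483 (4.99%) stood 1.5-fold or more above sham in AAC + DAPA and 511 (5.28%) as far below it, together 10.3%, while 8685 lay within 1.5-fold. At 2-fold the counts were 155 above (1.6%) and 152 below (1.57%), together 3.17%, and at 4-fold 28 and 21. The median difference was 0.00 (log2), and the middle 95% of the genes lay between −0.79 and 0.80. At the edge of 1.5-fold, the cytoplasmic actin Actb was lower by 0.59 and counted, while the arrestin Arrb1 was lower by 0.58 and not counted. Without the limit on the level, 602 of 18675 genes (3.22%) were higher and 639 (3.42%) lower, together 6.65%, and the median was again 0.00. These shares are the background for the gene lists below, which were counted over all their measured genes whatever their level. Lists made up mostly of genes above the limit are better set against the shares of the genes described, 4.99% and 5.28%. The share past 1.5-fold moved with the level, with 1.58% in the lowest of 5 equal bins of level, 11.1% in the next-to-highest and 9.56% in the highest. Of 1420 genes for receptors of smell, of pheromones and of trace amines, most of which the heart is not known to use, 62 (4.37%) passed 1.5-fold. By chromosome, the share of the genes described that passed 1.5-fold ran from 6.94% on chromosome 2 to 13.2% on chromosome 4. In whole tissue such as this, fewer cells of a type and less RNA per cell cannot be told apart.

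**Figure D1:**
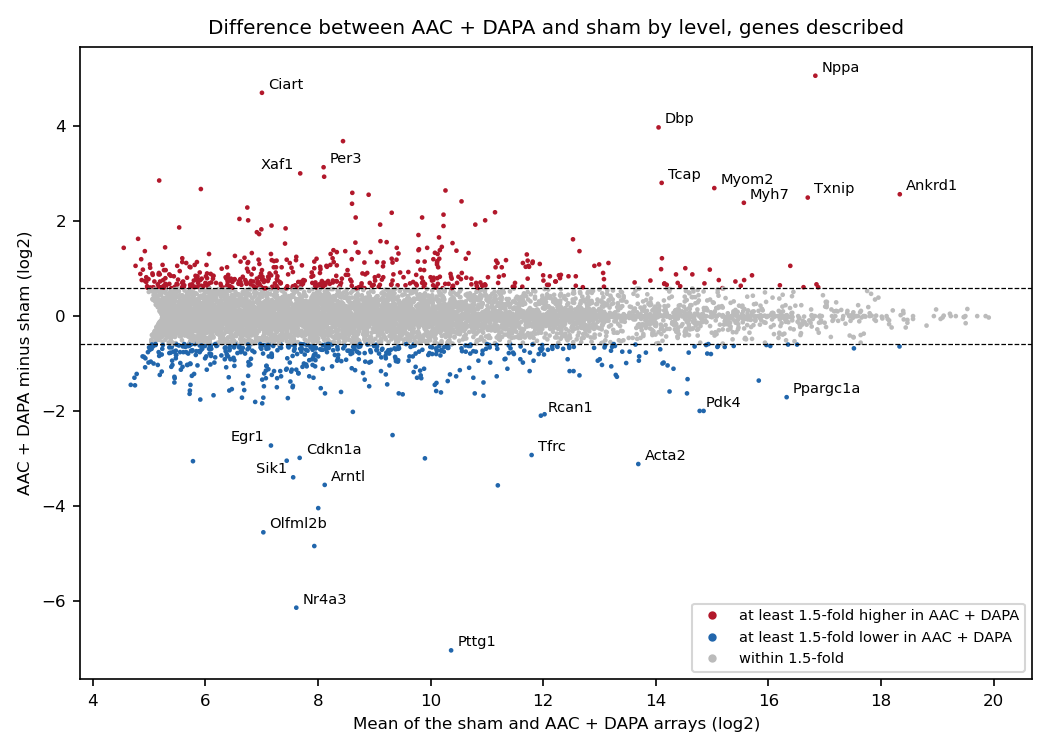
Difference between AAC + DAPA and sham (log2, vertical axis) against the mean of both arrays (log2, horizontal axis) for the 9679 genes described, 1 point per gene, with dashed lines at 1.5-fold. The cloud is centred on 0, 483 genes lie above the upper line and 511 below the lower line, and Nppa and Pttg1 are the farthest points.

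The 15 genes that were highest in AAC + DAPA relative to sham held natriuretic peptide, clock, sarcomere, interferon-induced and secreted genes. Nppa, which encodes atrial natriuretic peptide, stood first, and the clock repressor Ciart and the clock output Dbp followed. Scgb1c1, a member of the secretoglobin family of small secreted proteins, stood at 6.60, 9.61 and 10.29 (log2), 12.9-fold higher than sham. Pgm3, an enzyme that makes the sugar donor of protein O-GlcNAc modification, stood at 6.64, 7.07 and 9.58, 7.67-fold higher than sham. Inmt, a methyltransferase of indole amines, stood at 4.58, 6.21 and 7.26, and the lipid carrier Apod, apolipoprotein D, at 8.94, 10.84 and 11.59. For Pgm3 the AAC array lay near sham, whereas for Scgb1c1, Inmt and Apod it lay between the other arrays.

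Among the 15 genes lowest in AAC + DAPA relative to sham, Pttg1 had the largest difference. It encodes securin, which holds back the protease that separates sister chromatids at anaphase. Pttg1 stood at 13.89, 12.24 and 6.84, 133-fold below sham. Olfml2b, a secreted olfactomedin-like protein of the matrix, stood at 9.31, 5.29 and 4.75, the last under the median of its array. Tmem100, a membrane protein of endothelium that BMP signaling induces, stood at 10.03, 8.15 and 5.98. Slc41a3, a magnesium transporter, stood at 12.98, 10.40 and 9.41. All of these were lowest on the AAC + DAPA array. The melanin enzyme Dct stood at 8.97, 5.13 and 5.92, and the aldo-keto reductase Akr1e1 at 11.40, 11.15 and 8.40. Akr1e1 was 8.0-fold below sham in AAC + DAPA while its AAC level lay near sham. One further gene of these 15 has no known function and is not named in the text.

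**Figure D2:**
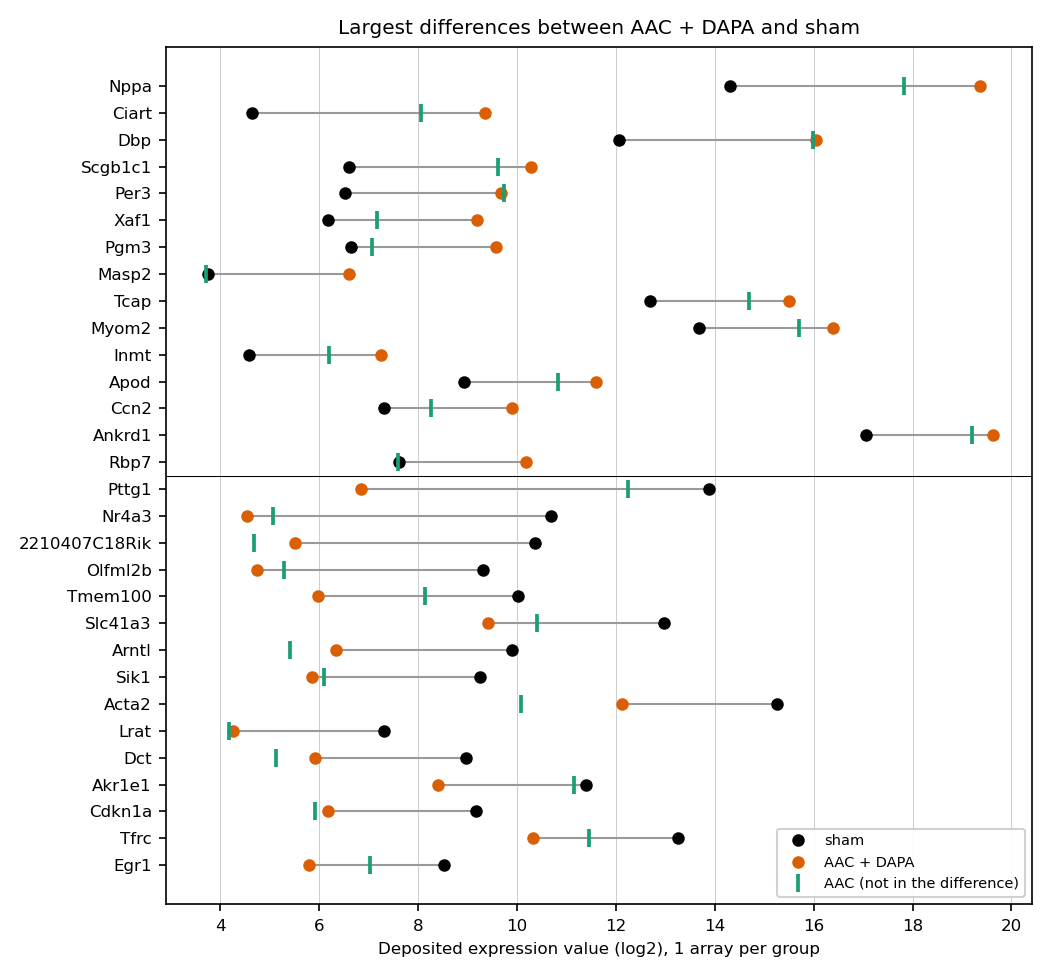
Deposited values (log2, 1 array per group) of the 15 genes with the largest differences in each direction, with sham in black, AAC + DAPA in orange and AAC as a green tick that does not enter the difference. The upper block is higher in AAC + DAPA, from Nppa at 14.30 and 19.37 to Rbp7 at 7.62 and 10.18, and the lower block is lower, from Pttg1 at 13.89 and 6.84 to Egr1 at 8.53 and 5.80.

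Genes of the hypertrophic response lay on both sides of sham in AAC + DAPA, with Nppa, Myh7, Ankrd1 and Acta1 above it. Of 16 measured genes of this list, 4 were at least 1.5-fold higher and 2 lower, 25.0% and 12.5% against 3.22% and 3.42% of all genes, and the list's median difference was 0.155 (log2). Among the genes described, the shares were 4.99% and 5.28%. Nppa stood at 14.30, 17.83 and 19.37, 33.6-fold above sham, and its AAC + DAPA value lay close to the highest of that array, 19.90. Nppb, which encodes brain natriuretic peptide, stood at 12.97, 13.79 and 13.51, a difference of 0.54 (1.45-fold) that did not pass 1.5-fold. The peptides thus differed in size, with Nppa the farther from sham.

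Of the myosin heavy chains, Myh7, the slow beta isoform of the fetal mouse ventricle, stood at 14.37, 16.65 and 16.76, 5.24-fold above sham. Myh6, the fast alpha isoform of the adult mouse ventricle, stood at 19.09, 19.05 and 19.03. Acta1, skeletal alpha-actin, which the fetal heart also uses, stood at 11.72, 10.35 and 13.34, 3.07-fold above sham, while cardiac actin Actc1 stood at 18.65, 18.03 and 18.01, 1.56-fold below sham. So 1 fetal-type isoform of myosin and 1 of actin were higher in AAC + DAPA, and of the adult forms Myh6 was near sham and Actc1 lower. Ankrd1, a nuclear and sarcomeric protein induced by stretch, stood at 17.05, 19.20 and 19.62, 5.94-fold above sham, also close to the highest value of that array. Rcan1, an inhibitor of the phosphatase calcineurin, stood at 13.01, 10.93 and 10.91, 4.29-fold below sham. Of the 10 stress genes of the list, Ankrd1 and Rcan1 alone passed 1.5-fold, and others such as Csrp3 at 16.92 in sham and 17.15 in AAC + DAPA and Xirp2 at 12.87 and 13.20, lay within 1.5-fold.

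The sarcomere is the contractile unit, built of thin actin filaments, thick myosin filaments and the Z-disc and M-band that anchor them. Of 21 measured genes of the sarcomere list, 5 (23.8%) were at least 1.5-fold higher in AAC + DAPA and 0 lower, with a median difference of 0.14. This list leaves out the actins and myosin heavy chains given above, of which Acta1 and Myh7 were higher and Actc1 lower. None of its 8 thin filament genes passed 1.5-fold, while 3 of 6 thick filament and M-band genes and 2 of 7 Z-disc genes did. Tcap, telethonin, which caps titin at the Z-disc, stood at 12.70, 14.70 and 15.51, 7.01-fold above sham. Myom2, an M-band protein that binds titin and myosin, stood at 13.69, 15.71 and 16.39, 6.5-fold above sham. Both were highest on the AAC + DAPA array. Myom1, the related M-band protein, was 1.57-fold higher (15.88 and 16.53), the intermediate filament desmin, Des, 1.56-fold (15.19 and 15.83), and myosin-binding protein C, Mybpc3, 1.53-fold (16.32 and 16.93). Troponin I, Tnni3, stood at 17.55 on all 3 arrays, and titin, Ttn, at 16.89 in sham and 17.17 in AAC + DAPA.

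Markers of other muscle were measured beside these genes. Of 7 atrial markers, 1 was higher, and this was Nppa itself. The others lay within 1.5-fold, with the atrial light chains Myl7 at 3.54 in sham and 3.30 in AAC + DAPA and Myl4 at 7.13 and 7.40, sarcolipin, Sln, at 5.40 on both, and Bmp10 at 3.82 and 4.17. Of 18 skeletal muscle markers, 3 were higher, 0 lower and 7 above the level limit. They were calsequestrin Casq1 (5.60, 5.43 and 7.89), the fast myosin-binding protein Mybpc2 (4.26, 4.40 and 5.46) and the light chain Myl1 (13.60, 13.70 and 14.59). The fast skeletal myosins were low on both arrays, with Myh1 at 4.23 and 3.97, Myh2 at 3.80 and 3.67 and Myh4 at 4.33 and 3.99, as were the skeletal calcium pump Atp2a1 at 3.18 on both and the channel Ryr1 at 2.96 on both. The median difference of the 18 skeletal markers was 0.02. Their summed linear signal in AAC + DAPA was 1.94 times that in sham, and 1.36 times without Myl1, which made up 93.2% of the sum in sham. The part of other muscle in the differences was not tested.

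The clock genes gave the highest share of the 50 lists, with 12 of 23 measured 1.5-fold or more above sham and 5 below it, 52.2% and 21.7% against 3.22% and 3.42% of all genes, with a median difference of 0.59. Of these 23 genes, 22 passed the limit on the level, and of the genes described 4.99% were higher and 5.28% lower. Activators and repressors lay on opposite sides of sham. Among the 4 activators 3 were lower and 0 higher, with a median of −1.12, and among the 10 repressors 8 were higher and 1 lower, with a median of 1.15. Of the 6 outputs 4 were higher and 1 lower, and the 3 regulators of protein turnover or phosphorylation lay within 1.5-fold.

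Arntl, which encodes BMAL1, the activator without which the clock stops, stood at 9.90, 5.41 and 6.34, 11.8-fold below sham. Clock, its partner in DNA binding, stood at 14.87, 13.65 and 13.76, and Npas2, a paralog that can replace Clock, at 6.59, 4.58 and 5.46, so that each was more than 2-fold below sham in AAC + DAPA. The nuclear receptor Rora, which activates Arntl, stood at 7.93 in sham and 8.09 in AAC + DAPA, within 1.5-fold. Of the repressors, Ciart, which binds and inhibits the CLOCK and BMAL1 pair, stood at 4.65, 8.07 and 9.36, 26.2-fold above sham. Its sham value lay under the array's median and its AAC + DAPA value well above it. The period genes, whose proteins enter the nucleus and block the activators, were all higher. Per1 stood at 5.75, 7.09 and 7.77 (4.06-fold above sham), Per2 at 4.70, 5.24 and 5.78 (2.11-fold) and Per3 at 6.53, 9.74 and 9.67 (8.82-fold). For Per1 and Per2 the AAC + DAPA array was the highest, and for Per3 both arrays of constricted mice lay close together. The cryptochromes, which pair with the period proteins, differed from each other, with Cry1 at 6.60 on both compared arrays and Cry2 at 7.37 in sham and 8.58 in AAC + DAPA.

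The REV-ERB receptors Nr1d1 and Nr1d2, which repress Arntl, were 1.60-fold and 1.74-fold higher, at 9.98 in sham against 10.66 in AAC + DAPA and 11.90 against 12.70. The helix-loop-helix repressors, which compete for the sites of the activators, lay on opposite sides of sham. Bhlhe41 (DEC2) stood at 9.34, 11.16 and 11.76, 5.35-fold above sham, and Bhlhe40 (DEC1) at 11.02, 10.05 and 10.39, 1.55-fold below it. Among the outputs, Dbp, a PAR-type leucine zipper activator that binds D-boxes, stood at 12.06, 15.98 and 16.04, 15.8-fold above sham. Its relatives Hlf (4.87, 5.71 and 5.63) and Tef (3.50, 4.09 and 4.09) were also higher, Tef at a level under the limit on all arrays. Nfil3, the repressor that binds the same D-boxes, stood at 6.98, 6.11 and 6.05 and was lower by 0.93. The D-box activators and their repressor thus lay on opposite sides of sham. The deubiquitinase Usp2 stood at 10.75, 11.48 and 11.78, 2.04-fold above sham, while Nampt, which makes a precursor of NAD, differed by 0.51.

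**Figure D3:**
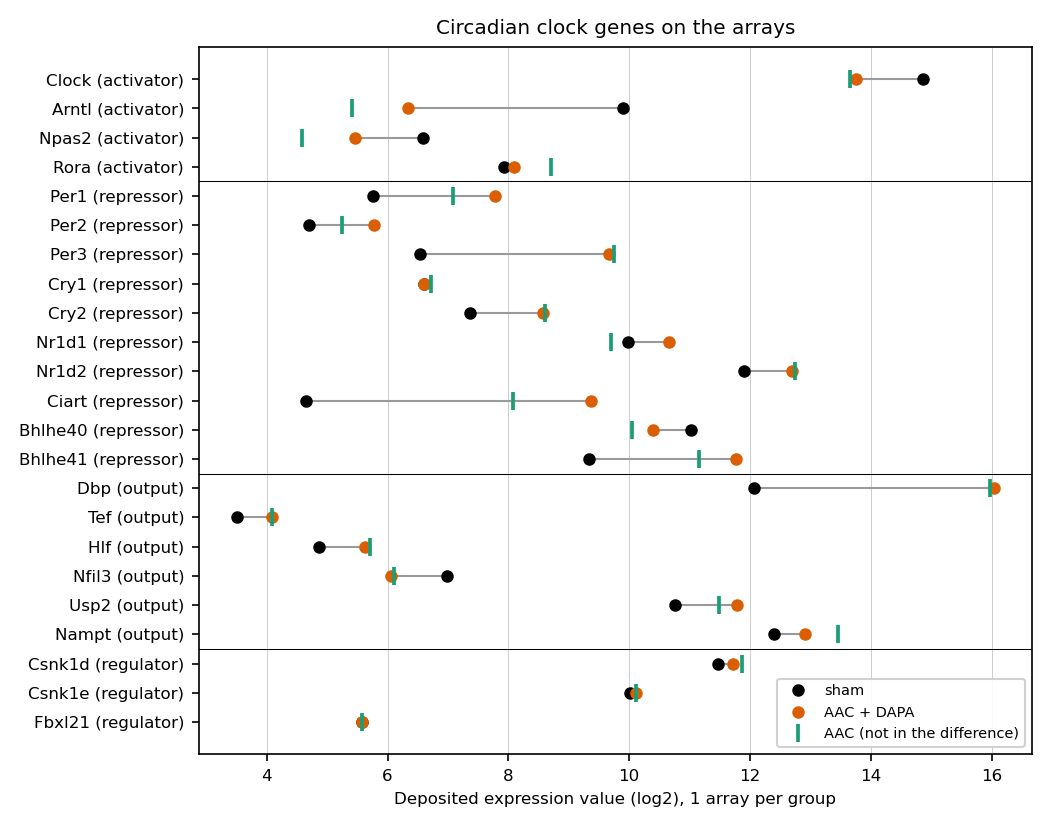
Deposited values (log2, 1 array per group) of all 23 measured clock genes, grouped into activators, repressors, outputs and regulators, with sham in black, AAC + DAPA in orange and AAC as a green tick that does not enter the difference. Sham is the higher array for Arntl, Clock and Npas2, and AAC + DAPA is the higher array for all 3 period genes, Ciart and Dbp.

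Of the clock genes, 3 of 4 activators were lower and 8 of 10 repressors higher. The promoters were therefore read for the letters that the activators and the D-box factors bind. RefSeq promoter windows (GRCm38.p6, 250 bases before to 50 bases after the start, 300 in all) were at hand for 20 of the 23 clock genes. The E-box CACGTG, which reads alike on both strands, was in the window of 5 of these 20 genes (25.0%), namely Bhlhe41, Ciart, Cry1, Per1 and Tef, against 8.09% of all 27025 genes with a window and 11.5% of the 7852 genes described that have one. It was in 4 of 11 windows of the clock genes that were higher and in 0 of 4 windows of those that were lower. The D-box letters TTANGTAA, searched on both strands, were in 1 of the 20 (Per3), against 2.72% of all genes. The E-box letters were not particular to the clock list, since 7 of 23 windows of the immediate early genes described below held them (30.4%). These counts describe letters in short windows and show no binding. The windows of the 3 clock genes higher by over 2 (log2) that hold an E-box, and that of Per3 with its D-boxes, are printed 5′ to 3′ on the strand of the gene, with the motif in capitals.
Ciart, chr3:95882179-95882478, minus strand: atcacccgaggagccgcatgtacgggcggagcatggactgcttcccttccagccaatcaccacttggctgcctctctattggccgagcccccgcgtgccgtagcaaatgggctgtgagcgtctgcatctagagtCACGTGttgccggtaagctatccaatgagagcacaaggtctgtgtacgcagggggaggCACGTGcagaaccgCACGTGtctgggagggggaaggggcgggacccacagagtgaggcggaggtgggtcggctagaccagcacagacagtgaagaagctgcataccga
Per1, chr11:69098699-69098998, plus strand: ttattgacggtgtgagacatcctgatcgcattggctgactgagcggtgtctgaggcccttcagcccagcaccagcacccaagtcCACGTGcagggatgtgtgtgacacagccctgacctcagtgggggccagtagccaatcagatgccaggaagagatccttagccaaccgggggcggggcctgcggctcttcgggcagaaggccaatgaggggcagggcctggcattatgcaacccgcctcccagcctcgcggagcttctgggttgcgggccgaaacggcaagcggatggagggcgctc
Bhlhe41, chr6:145865371-145865670, minus strand: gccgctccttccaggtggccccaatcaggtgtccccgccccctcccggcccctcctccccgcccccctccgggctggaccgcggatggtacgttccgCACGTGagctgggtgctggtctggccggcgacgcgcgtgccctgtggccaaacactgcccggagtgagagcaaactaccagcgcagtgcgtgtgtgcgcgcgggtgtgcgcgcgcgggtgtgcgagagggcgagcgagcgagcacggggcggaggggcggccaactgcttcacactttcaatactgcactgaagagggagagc
Per3, chr4:151044616-151044915, minus strand: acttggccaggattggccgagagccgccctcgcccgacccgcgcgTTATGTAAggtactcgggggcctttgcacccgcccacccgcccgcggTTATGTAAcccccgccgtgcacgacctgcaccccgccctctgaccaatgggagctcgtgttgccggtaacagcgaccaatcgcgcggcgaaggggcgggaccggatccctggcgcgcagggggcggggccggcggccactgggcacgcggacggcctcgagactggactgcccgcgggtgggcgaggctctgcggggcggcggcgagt
Ciart, the most displaced of these genes, carried 3 E-boxes, 116, 58 and 44 bases before its start, Per1 carried 1 at 166 and Bhlhe41 1 at 153. In Per3 the D-box letters stood 205 and 158 bases before the start. Dbp and Cry2, which were also higher, held neither motif in their windows.

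Immediate early genes are switched on within minutes of a stimulus and need no new protein for it. Of 31 measured, 8 (25.8%) were at least 1.5-fold lower and 2 (6.45%) higher in AAC + DAPA, while the median difference was 0.00. The nuclear receptor Nr4a3, which acts without a known ligand, stood at 10.69, 5.06 and 4.54, 71.0-fold below sham, a fold that rests on a dim value under the median of the AAC + DAPA array. Sik1, a kinase of the AMPK family that cAMP induces and that holds CREB coactivators back, stood at 9.26, 6.09 and 5.86, 10.6-fold below sham. The zinc finger factor Egr1 stood at 8.53, 7.04 and 5.80, 6.63-fold below sham. These genes were highest in sham and lowest in AAC + DAPA. Nr4a1, the paralog of Nr4a3, stood at 7.21, 5.74 and 5.64, and the third paralog, Nr4a2, at 4.78, 4.73 and 5.13, under the limit on the level.

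Of 9 AP-1 and related genes, 3 were lower, Fosl2 at 6.23 in sham and 5.23 in AAC + DAPA, Jun at 9.22 and 8.44 and Atf3 at 6.23 and 5.62. Fos itself was low on both arrays (3.77 and 3.80), and Junb (6.16 and 5.96) and the phosphatase gene Dusp1 (14.38 and 14.24) lay within 1.5-fold. The list therefore did not move as a block. Ccn2, connective tissue growth factor, was on the other side, at 7.31, 8.27 and 9.91, 6.06-fold above sham, while its relative Ccn1 stood at 12.02 on all 3 arrays. Klf6, a zinc finger factor, was 2.04-fold higher (9.62 and 10.65), and the antiproliferative gene Btg2 1.65-fold lower (7.64 and 6.92).

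**Figure D4:**
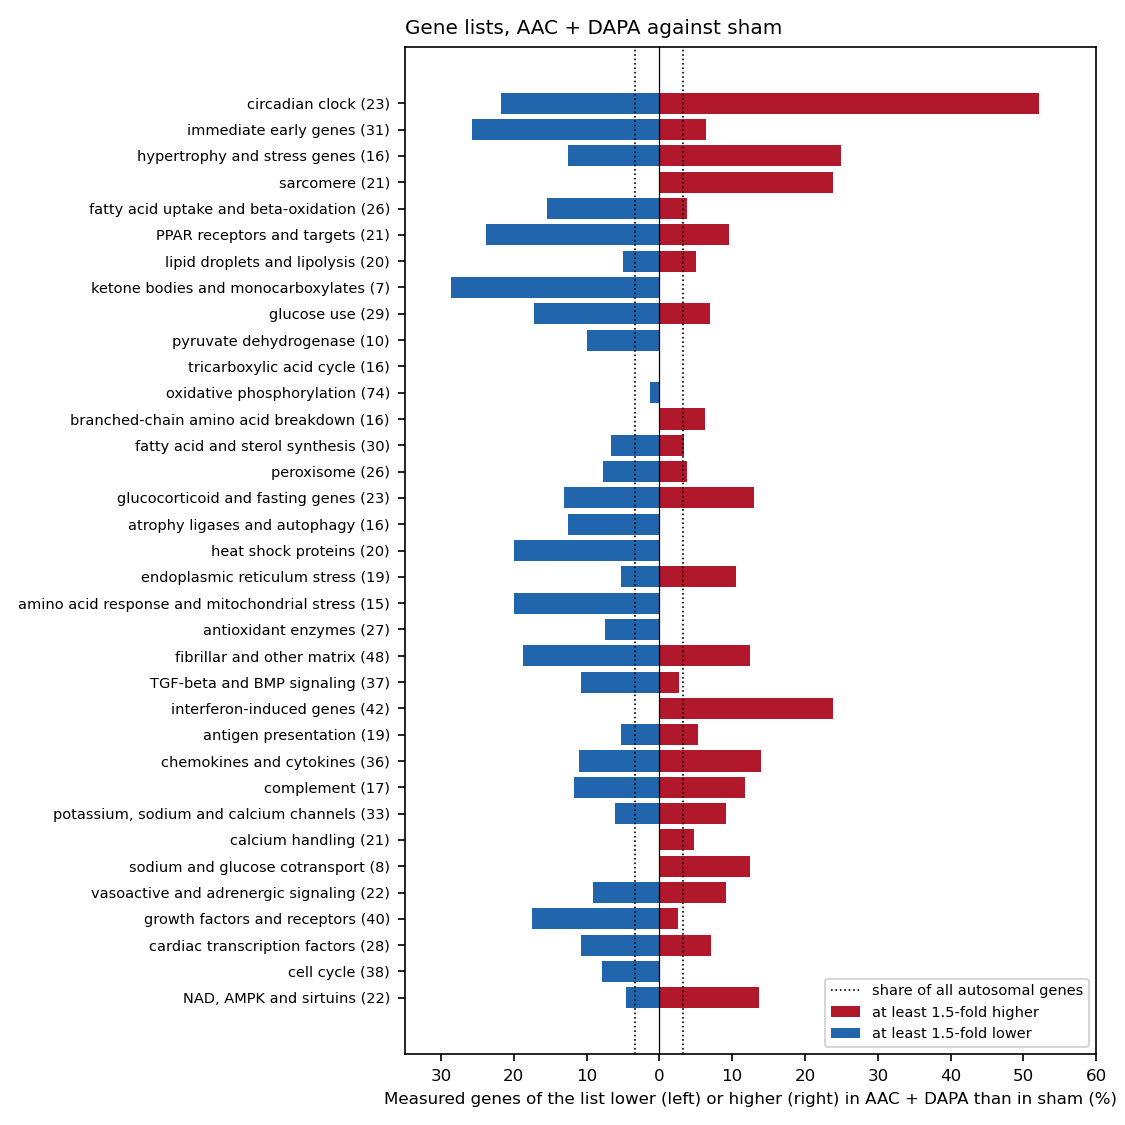
Share of the measured genes of 35 pathway lists that were at least 1.5-fold lower (blue, left) or higher (red, right) in AAC + DAPA than in sham, in percent, with the number of measured genes in brackets and dotted lines at the shares of all genes outside X and Y (3.42% and 3.22%). The circadian clock has the longest red bar (52.2%), interferon-induced and sarcomere genes have red bars only, and the tricarboxylic acid cycle has none.

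The PPAR system was the pathway that the study followed. Of 21 measured receptors, coactivators and targets, 5 (23.8%) lay below sham and 2 (9.52%) above it, with a median difference of −0.15. The receptors and coactivators held 3 of the 5. Ppara stood at 10.99, 9.89 and 9.62, 2.58-fold below sham. Ppargc1a, which encodes the coactivator PGC-1α, stood at 17.18, 15.58 and 15.47, 3.27-fold below sham. Both were lowest on the AAC + DAPA array. The partner receptor Rxra was lower by 0.60 (7.64 and 7.04), while Pparg stood at 8.30 on both arrays and the coactivator Ppargc1b at 8.66 and 8.70.

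The targets of PPARα were spread on both sides. Pdk4, the kinase that shuts pyruvate dehydrogenase when fatty acids are burnt, stood at 15.78, 9.54 and 13.78, 4.0-fold below sham. Pex11a, which divides peroxisomes, stood at 7.73, 5.48 and 6.42, 2.48-fold below sham. For both genes the AAC array was the lowest. Ucp3, a mitochondrial carrier of the uncoupling protein family, stood at 9.54, 6.57 and 10.70, 2.23-fold above sham, and the lipoprotein receptor Vldlr at 14.21, 14.89 and 15.09, 1.84-fold above sham. Near sham were the thioesterase Acot2 (15.33 and 15.43), the muscle carnitine transferase Cpt1b (15.41 and 15.50), the lipid droplet coat gene Plin2 (11.49 on both) and Mlycd (8.67 and 8.73), which breaks down malonyl-CoA. In all, 14 of the 21 genes lay within 1.5-fold.

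Fatty acid uptake and beta-oxidation had 26 measured genes, of which 4 (15.4%) were lower and 1 (3.85%) higher, with a median of −0.14. Crat, carnitine acetyltransferase, which buffers acetyl groups in mitochondria, stood at 14.73, 13.41 and 13.69, 2.06-fold below sham. Cpt2, which re-forms acyl-CoA inside mitochondria, stood at 13.44, 11.32 and 12.50, 1.92-fold below sham. Ech1, an isomerase for unsaturated fatty acids, was 1.60-fold lower (17.86 and 17.18), and Acadvl, which opens the oxidation of very long chains, 1.53-fold lower (16.27 and 15.66). The carnitine transferase Cpt1a, the form that liver also uses, was the gene on the other side, at 7.39, 7.58 and 8.08. Of 4 uptake genes, 0 passed 1.5-fold.

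Plin5, the droplet coat protein that the study named, stood at 7.95, 7.24 and 7.88, a difference of −0.07. Around it, 18 of 20 genes of lipid droplets and lipolysis lay within 1.5-fold. The exceptions were lipases, with Pnpla2, the triglyceride lipase ATGL, 1.55-fold above sham (14.12, 13.53 and 14.75) and hormone-sensitive lipase, Lipe, 1.51-fold below (8.06, 6.47 and 7.47), a call that ended when the arrays were centred or quantile normalised. Ketone body use and monocarboxylate carriage had 7 measured genes. Its enzymes Bdh1 (10.03 and 10.36), Oxct1 (17.18 and 17.28) and Acat1 (15.88 and 15.87) lay near sham, whereas 2 carriers of lactate, pyruvate and ketone bodies were lower, Slc16a7 by 2.19-fold (8.10 and 6.97) and Slc16a1 by 1.53-fold (15.20 and 14.59).

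Glucose use, with 29 measured genes, had 5 lower (17.2%) and 2 higher (6.90%). Ppp1r3c, which brings protein phosphatase 1 to glycogen and favours its synthesis, stood at 15.85, 15.33 and 13.85, 4.0-fold below sham. Fbp2, the muscle form of fructose bisphosphatase, stood at 10.80, 7.66 and 9.35, the glycolytic mutase Pgam1 at 7.93, 7.18 and 6.62 and hexokinase 2, Hk2, at 12.15, 12.50 and 11.38. Hk2, Pgam1 and Ppp1r3c were lowest in AAC + DAPA, and Fbp2 was lowest in AAC. Lactate dehydrogenase Ldha was lower by 0.63 (16.35 and 15.72). On the other side were Pfkfb3, which makes the activator of phosphofructokinase (5.46, 7.30 and 6.23), and the muscle enolase Eno3 (14.89 and 15.48).

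The mitochondrial core lay close to sham. Of 74 measured genes of oxidative phosphorylation, 73 lay within 1.5-fold and 1 was lower, Atp5e, a small subunit of ATP synthase (10.55, 9.26 and 9.82), with a list median of −0.06. All 16 genes of the tricarboxylic acid cycle lay within 1.5-fold, with a median of −0.03. Among 10 genes of pyruvate dehydrogenase and its control, Pdk4 alone passed. Its relatives Pdk1 (13.96 and 14.17) and Pdk2 (15.11 and 15.02) and the catalytic subunit gene Pdhb (18.51 and 18.43) did not. The breakdown of branched-chain amino acids had 1 of 16 genes higher, the phosphatase Ppm1k that switches this pathway on, at 12.38, 13.61 and 13.44, 2.08-fold above sham.

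Lipid synthesis and peroxisomes had shares past 1.5-fold near those of the genes described, 4.99% higher and 5.28% lower. Fatty acid and sterol synthesis had 3.33% higher and 6.67% lower, and peroxisomes 3.85% and 7.69%. Of 30 genes of fatty acid and sterol synthesis, Lpin1, a phosphatidate phosphatase that also acts with PGC-1α, was 2.38-fold lower (13.27, 12.14 and 12.02) and Mlxipl, the glucose-sensing factor ChREBP, 2.25-fold lower (8.11, 7.30 and 6.94). Malic enzyme Me1 was 2.01-fold higher, at 14.02, 13.12 and 15.03. None of 11 sterol genes passed 1.5-fold. Besides Pex11a, the peroxisome list of 26 had Pex2 lower (7.42 and 6.63) and the transporter Abcd2 higher (6.54 and 7.17).

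**Figure D5:**
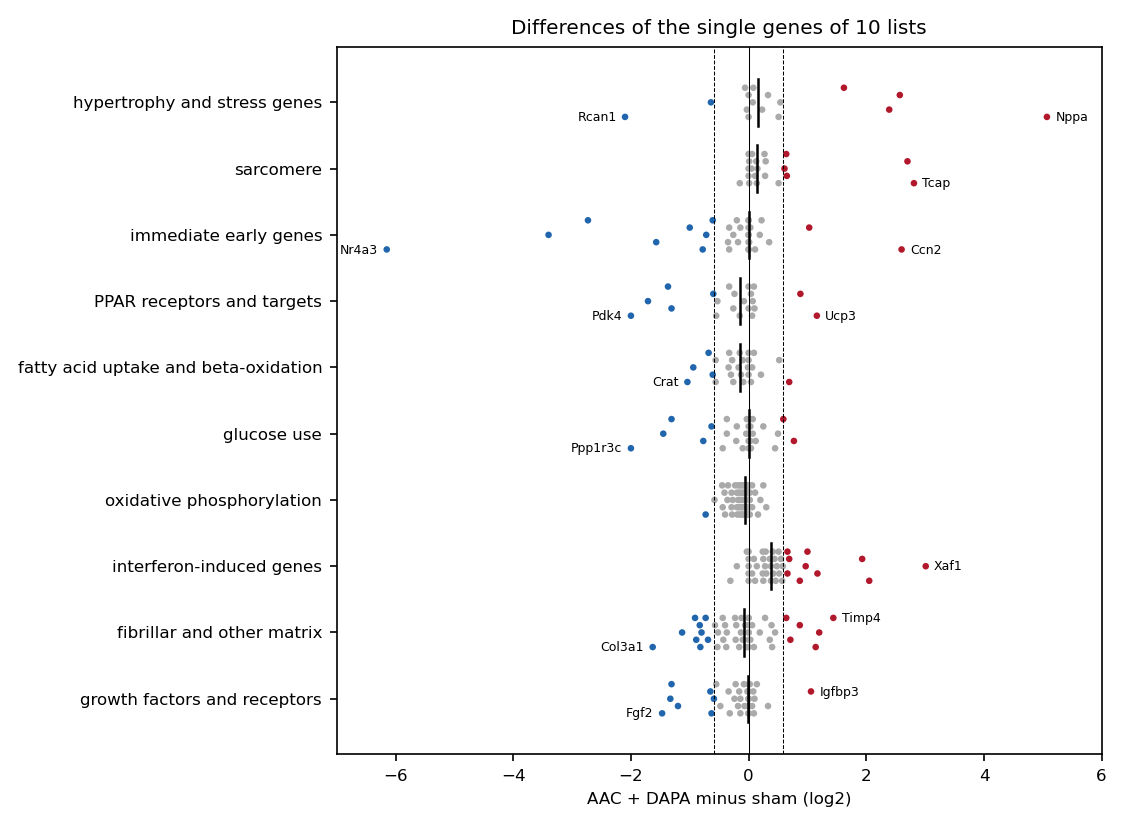
Difference between AAC + DAPA and sham (log2) of each measured gene of 10 lists, 1 point per gene, in red or blue past 1.5-fold (dashed lines) and grey within it, with a black bar at the list's median. Most genes of oxidative phosphorylation crowd around 0, the interferon-induced genes have a median of 0.38, and single genes such as Nppa and Nr4a3 lie far from their lists.

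Of 42 measured interferon-induced genes, 10 (23.8%) were at least 1.5-fold higher in AAC + DAPA, 0 lower and 32 within 1.5-fold, with a median difference of 0.38, and 30 passed the limit on the level. Xaf1, a partner and antagonist of the caspase inhibitor XIAP, stood at 6.18, 7.18 and 9.19, 8.06-fold above sham. Ifit2, which binds viral RNA and slows its translation, stood at 5.58, 6.74 and 7.63, 4.14-fold above sham. Both were highest in AAC + DAPA. For other genes of the list the AAC array was the highest, as for Ube2l6, the enzyme that conjugates the ubiquitin-like ISG15 (8.14, 12.20 and 10.07, 3.81-fold above sham), and the exonuclease Isg20 (6.36, 10.39 and 7.36, 2.0-fold above sham). Ddx58, the RNA sensor RIG-I, stood at 6.68, 7.92 and 7.85. Among 8 GTPases of the guanylate-binding and related families, 3 were higher, Iigp1 at 9.40 in sham and 10.37 in AAC + DAPA, Gbp3 at 7.79 and 8.48 and Gbp2 at 7.80 and 8.46. Ifit3 (8.10 and 8.97), a partner of Ifit2, and the nucleic acid sensor Zbp1 (4.11 and 4.77, under the limit on the level) completed the 10.

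Antigen presentation, which interferon also induces, had 1 of 19 genes higher and 1 lower, 5.26% each way. This lay near the shares of the genes described, 4.99% higher and 5.28% lower. The immunoproteasome subunit Psmb10 stood at 7.63, 8.47 and 8.27, and the class II chain H2-Ab1 at 9.48, 11.21 and 8.69. Chemokines and cytokines, with 36 genes of which 17 passed the limit on the level, had 5 higher and 4 lower. The eosinophil chemokine Ccl11 (6.59, 8.05 and 7.77) and the lymphoid chemokine Ccl21a (8.60, 10.34 and 9.73) were over 2-fold above sham. The mouse chemokines Ccl9 and Ccl6, which attract myeloid cells, were 4.06-fold and 2.83-fold below it, at 9.63 in sham against 7.61 in AAC + DAPA and 8.30 against 6.80. Cxcl14 was also higher (5.13 and 5.90) and the monocyte chemokine Ccl7 lower (5.48 and 4.50). Chemokines thus lay on both sides. Of the interleukins, Il33, an alarmin of stromal cells, was 2.06-fold higher (5.20 and 6.24) and Il15 1.92-fold lower (11.32 and 10.38).

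Within the complement list of 17 genes, the proteases of the lectin pathway stood out. Masp2, which cleaves C4 and C2, stood at 3.75, 3.71 and 6.61, and its sham value was under the 25th percentile of that array (3.81). Masp1 stood at 6.65, 6.44 and 8.18, 2.89-fold above sham. For both, sham and AAC lay near each other and AAC + DAPA above them. Lower were Cd55, which dissolves complement convertases on cell surfaces (9.18, 8.32 and 8.27), and C1qa, which is also a macrophage marker (9.0, 9.0 and 8.22). Macrophage and monocyte markers as a whole lay near sham, with 1 of 19 higher, the chemokine receptor Ccr2 (6.62, 9.46 and 7.30), and 1 lower, and a summed linear signal in AAC + DAPA 0.997 times that in sham. Defining markers such as Adgre1 (6.41 and 6.60), Csf1r (7.62 and 7.79) and Lyz2 (11.0 and 10.97) differed by less than 1.5-fold. T and NK cell markers had 0 of 14 past 1.5-fold, neutrophil markers 1 of 13, Retnlg (3.57, 5.77 and 4.24), with 0 of the 13 above the limit on the level, and B cell markers 1 of 6, Jchain (6.41, 5.45 and 5.19).

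The extracellular matrix list had 48 measured genes, with 9 (18.8%) below sham, 6 (12.5%) above it and a median of −0.08. Collagens were the lower group, with 5 of 14 lower and 0 higher. Col3a1, a fibrillar collagen of the heart's interstitium, stood at 10.25, 9.14 and 8.62, 3.10-fold below sham. Col6a2 (8.35 and 7.44), Col6a3 (6.80 and 5.97), Col15a1 (5.92 and 5.03) and Col5a1 (4.16 and 3.36, under the limit on the level) were the others. The chains of collagen I lay near sham, Col1a1 at 6.11 and 5.90 and Col1a2 at 7.55 and 7.39. Of the proteoglycans, versican, Vcan, was 2.19-fold lower (8.18 and 7.05), and the membrane protease Mmp14 and the aggrecanase Adamts9 were lower as well (6.41 and 5.72, 8.77 and 7.95).

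The 6 matrix genes above sham came from several classes. Timp4, the tissue inhibitor of metalloproteinases that is most abundant in the heart, stood at 9.22, 9.70 and 10.66, 2.71-fold above sham. Thbs2, thrombospondin 2, which restrains matrix proteases, stood at 8.00, 8.75 and 9.20, 2.30-fold above sham, and the protease Adamts1 at 6.19, 7.89 and 7.33, 2.20-fold above sham. Timp4 and Thbs2 were highest in AAC + DAPA, and Adamts1 in AAC. The others were the elastic fibre protein Fbln5 (8.06 and 8.93), the stromal protease Mmp3 (5.75 and 6.46) and the leucine-rich proteoglycan Prelp (8.28 and 8.92). Related genes lay within 1.5-fold, as Thbs1 (4.44 and 3.91), Thbs4 (6.17 and 5.80) and tenascin C, Tnc (4.01 and 3.49). Fibroblast markers had 3 of 11 lower and 0 higher, with Col3a1, the homeobox factor Meox1 (5.39, 4.78 and 4.09) and lumican, Lum (13.57, 12.68 and 12.84), while decorin, Dcn, stood at 17.68 and 17.87. Their summed linear signal in AAC + DAPA was 1.06 times that in sham, and 0.754 times without Dcn, the brightest of them.

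Acta2, smooth muscle alpha-actin, which vessel walls and activated fibroblasts use, stood at 15.25, 10.08 and 12.13, 8.69-fold below sham. The other smooth muscle and pericyte markers did not share this difference. Among the 16 measured, smooth muscle myosin Myh11 was higher (4.65, 5.56 and 5.28), and transgelin, Tagln (7.34 on both), Cnn1 (4.17 and 4.44), Mylk (6.39 on both) and Kcnmb1 (7.53 and 7.47) lay within 1.5-fold. Their coactivator Myocd stood at 9.50 and 9.14, and Rgs5, a pericyte gene, at 14.34 and 14.84. The summed linear signal of the 16 markers in AAC + DAPA was 0.646 times that in sham. It was 1.07 times without Acta2, the gene of largest linear change, and 0.406 times without Rgs5, the brightest of them.

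TGF-beta and BMP signaling had 37 measured genes, with 4 lower and 1 higher. None of 11 ligands and none of 8 SMAD genes passed 1.5-fold. The co-receptor Tgfbr3, betaglycan, stood at 9.0 in sham and 9.92 in both arrays of constricted mice, 1.89-fold above sham. All 4 lower genes were among the 11 targets on the list, whose median was −0.03. Skil, which holds SMAD complexes inactive, stood at 10.44, 9.89 and 9.33, 2.16-fold below sham, and the BMP-induced inhibitors of differentiation Id2 (9.83, 9.97 and 8.93), Id3 (6.11, 5.92 and 5.38) and Id1 (10.93, 10.80 and 10.31) were 1.87-fold, 1.66-fold and 1.54-fold below it. All 4 were lowest in AAC + DAPA.

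Growth factors and their receptors had 40 measured genes, with 7 (17.5%) lower and 1 (2.50%) higher and a median of −0.01. Fgf2 stood at 8.29, 7.19 and 6.82, 2.77-fold below sham. Vegfa, the main growth factor of capillaries, stood at 15.23, 14.41 and 13.90, 2.51-fold below sham, and its receptor Kdr at 13.59, 13.62 and 12.96. These 3 genes were lowest in AAC + DAPA. The binding protein Igfbp5 was 2.48-fold lower (10.49, 9.42 and 9.18) and the insulin receptor substrate Irs1 2.30-fold lower (8.25, 5.70 and 7.05). Angpt1, which steadies vessels, and Pdgfd were 1.57-fold and 1.51-fold lower, and Igfbp3 was the member that was higher (4.97 and 6.03).

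Endothelial markers, by contrast, had 3 of 16 higher and 1 lower. Rbp7, a retinol-binding protein of heart capillaries in the mouse, stood at 7.62, 7.59 and 10.18, 5.90-fold above sham, and the water channel Aqp1 at 12.45, 12.31 and 13.54, 2.13-fold above sham. Ly6c1 was 1.69-fold higher (15.19 and 15.95), and Kdr was the lower one. For Rbp7 and Aqp1 the AAC array lay near sham. The defining markers Pecam1 (11.70 and 11.61), Cdh5 (12.67 and 12.66) and Flt1 (11.10 on both) lay near sham. The summed linear signal of the 16 genes in AAC + DAPA was 1.09 times that in sham. It was 1.35 times without Fabp4, the brightest of them, and 1.01 times without Ly6c1, the gene of largest linear change.

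Genes of the heat shock response were lower or near sham, 4 of 20 being lower and 0 higher, with a median of −0.045. They were helpers of HSP70 and HSP90, among them 3 of the 7 cochaperones on the list. Other cochaperones lay within 1.5-fold, such as Bag3 (11.04 in sham and AAC + DAPA) and Fkbp4 (12.89 and 12.62). Stip1, which passes clients between them, stood at 13.95, 12.62 and 12.67, Hsph1, an exchange factor, at 11.81, 10.09 and 10.54, and Dnajb1, which starts the HSP70 cycle, at 8.25, 7.41 and 7.25, each at least 2-fold below sham. Ahsa1, an activator of HSP90, was 1.51-fold lower (11.71 and 11.12), a call that ended when the arrays were centred and left 3 of 20. HSP90 itself, Hsp90aa1 (14.21 and 14.00), and the small heat shock genes Hspb6 (17.37 and 17.43) and Cryab (17.23 and 17.36) lay within 1.5-fold.

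Of 11 chaperones of the endoplasmic reticulum, 2 were higher, 1 lower and 8 within 1.5-fold, with a median of 0.47. Hsp90b1, GRP94, stood at 15.86, 16.64 and 16.92, 2.08-fold above sham, and Hyou1 at 9.58, 8.93 and 10.20, 1.54-fold above sham. The master chaperone Hspa5, BiP (17.49 and 18.02), calreticulin, Calr (15.69 and 16.19), and the disulfide isomerases Pdia3 (12.08 and 12.55) and Pdia6 (11.97 and 12.42) differed by 0.45 to 0.53 and did not pass 1.5-fold. Dnajc3, an inhibitor of the kinase PERK, was the lower one (10.63 and 10.03). The 8 regulators of this response had a median of 0.05 and 0 past 1.5-fold.

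In other stress lists the genes past 1.5-fold were lower, but the list medians lay between −0.045 and 0.00. Of all genes 3.42% were lower, and of the genes described 5.28%. Of 15 genes of the amino acid response, 3 were lower and 0 higher, the mitochondrial folate enzyme Mthfd2 (6.79, 5.31 and 5.03, 3.39-fold below sham), the amino acid transporter chain Slc3a2 (12.32, 11.36 and 11.52) and asparagine synthetase, Asns (7.93, 7.43 and 7.24). Antioxidant enzymes had 2 of 27 lower, thioredoxin reductase Txnrd1 (10.37, 10.09 and 9.59) and Gpx7 (6.05, 5.96 and 5.46), and 0 higher. This share, 7.41%, lay near that of the genes described, and Gpx7 no longer passed after centring. Of 16 atrophy and autophagy genes, the muscle ubiquitin ligase Trim63 (14.17, 13.52 and 13.23) and Fbxo30 (12.48 in sham and 11.84 in both others) were lower. The ligase Fbxo32, atrogin-1, stood at 11.56 and 12.09 and lay within 1.5-fold, so Trim63 alone of this best-known pair of muscle ligases passed 1.5-fold.

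The glucocorticoid and fasting genes were evenly split, 3 of 23 being higher and 3 lower. Txnip, which binds thioredoxin and limits glucose uptake, stood at 15.45, 16.25 and 17.95, 5.66-fold above sham. Cdkn1a, which encodes the cell cycle inhibitor p21, stood at 9.17, 5.91 and 6.18, 7.94-fold below sham. Txnip was highest in AAC + DAPA, and Cdkn1a was low on both arrays of constricted mice. The factors Zbtb16 (13.56 and 12.53) and Foxo3 (5.61 and 6.20) also passed 1.5-fold, and the glucocorticoid target Sgk1 (9.90 and 9.38) did not. In the cell cycle list of 38 genes, 3 were lower and 0 higher, and besides Pttg1 and Cdkn1a the third was Mdm2, the ligase of p53 (12.33, 12.11 and 11.64). The proliferation gene Mki67 stood at 5.37 and 5.81.

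Ion channels had 3 of 33 genes higher and 2 lower. Kcnip2, the subunit that sets the transient outward potassium current, stood at 11.96, 13.47 and 13.33, 2.58-fold above sham. Scn4b, an accessory subunit of sodium channels, stood at 8.33, 6.37 and 6.60, 3.32-fold below sham. In both cases the arrays of constricted mice lay together, apart from sham. The pacemaker channels lay on opposite sides, Hcn2 being 1.56-fold higher (4.94 and 5.58) and Hcn4 lower at a level under the limit (4.73 and 4.10), as was the potassium channel Kcna4, which was higher (3.88 and 5.10). Calcium handling had 1 of 21 genes past 1.5-fold, Casq1, the skeletal form of calsequestrin. The cardiac form Casq2 (17.56), the calcium pump Atp2a2 (19.71) and the exchanger Slc8a1 (14.82) had the same value on all 3 arrays, Atp2a2 close to the highest value of each array (19.90 to 19.93), and the pump inhibitor Pln (19.48 and 19.46) and the release channel Ryr2 (15.34 and 15.17) lay near sham.

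The target of the drug, Slc5a2, which encodes SGLT2, stood at 3.81 on all 3 arrays, at the 25th percentile of the compared arrays, and Slc5a1, which encodes SGLT1, at 2.84 in sham and 3.15 in AAC + DAPA. Of 8 measured genes of sodium and glucose cotransport, 1 was higher, the sodium bicarbonate carrier Slc4a4 (8.43, 9.79 and 9.12), and 0 were lower. Adrenergic and vasoactive signaling had 2 of 22 genes higher and 2 lower, 9.09% each way against 3.22% and 3.42% of all genes. The other 18 lay within 1.5-fold. Grk5, the kinase that desensitises beta receptors, stood at 11.78, 9.84 and 10.10, 3.20-fold below sham, and the receptor Adra1b at 7.68, 6.14 and 6.34, 2.53-fold below it. The angiotensin receptor Agtr1a was 1.66-fold higher (11.85, 12.50 and 12.58) and the peptide Edn3, endothelin 3, 2.48-fold higher (5.41, 5.92 and 6.72). They belong to small groups, with 2 of 5 adrenergic genes lower, and 1 of 7 renin-angiotensin and 1 of 5 endothelin genes higher. The median difference was −0.06 over 5 adrenergic, 0.10 over 7 renin-angiotensin and 0.00 over 5 endothelin genes.

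Of 28 cardiac transcription factors, 3 were lower and 2 higher, with a median of −0.15. Irx3, which patterns conduction in the ventricle, stood at 9.09, 10.87 and 10.50, 2.66-fold above sham, and Nfatc2, a factor that calcineurin activates, at 4.72 in sham and AAC and 5.63 in AAC + DAPA. Hand2 (7.80, 6.93 and 6.56), Srf, the serum response factor (10.37, 9.44 and 9.55), and Gata6 (7.79, 7.23 and 7.15) were lower, by 2.36-fold, 1.77-fold and 1.56-fold. In the list of NAD, AMPK and sirtuin genes, 3 of 22 were higher, the nicotinamide methyltransferase Nnmt (6.23, 7.06 and 6.97), the nuclear NAD synthase Nmnat1 (11.15, 10.57 and 11.85) and the AMPK subunit Prkab2 (8.66, 9.35 and 9.32). The lower one, Nmrk2, a nicotinamide riboside kinase of muscle, stood at 4.20, 3.32 and 3.0, under the limit on the level.

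Markers of tissue that could be carried along with the heart were low or near sham. Genes of liver, lung and kidney (9) and of mesothelium (8) had 0 past 1.5-fold and 0 above the limit on the level. Adipocyte markers had 2 of 12 above that limit and Lipe as the member past 1.5-fold, and Schwann cell and neuron markers had 1 of 8 higher, Cdh19 (6.58, 6.79 and 7.30). The 3 measured red blood cell genes lay within 1.5-fold, with Slc4a1 at 7.54, 8.92 and 7.99. The part of cell composition in the differences above was not tested.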

How the data were processed

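The authors isolated heart RNA and hybridised it to Affymetrix arrays, 1 per group, and deposited 1 table of log2 values with 2 decimals for 22206 probes. Affymetrix Expression Console is the software listed in the submitters' processing notes, while the methods refer to a standard protocol of Agilent Technologies for normalisation and do not name the steps. The methods name PrimeView, a human array, whereas the deposited probes carry mouse genes. No counts lie behind the values, so depth is not defined, and 1 array per group limits the precision. 0 columns were without a sample.

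Probes with exactly 1 symbol (19572, 88.1%) were averaged per gene into 19505 genes, and 830 genes of X and Y were left out. All 19572 Entrez IDs were found in the RefSeq table under the same symbol. The difference was AAC + DAPA minus sham, called higher or lower from 1.5-fold. Tools were matplotlib 3.10.9, pandas 2.3.3, numpy 2.4.6 and Python 3.11.15, and counting was checked on simulated data.

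The members and the 50 gene lists were chosen with earlier results of these data known, as were 5 further lists. By rule, the text names the 15 largest differences each way, up to 4 genes per list past 1.5-fold, and the genes Pdk4, Plin5, Ppara, Nppa, Nppb, Myh7, Atp2a2 and Tnni3 that the study named. Genes of no known function were counted and left unnamed, and further list members were named after their values were seen. List genes that did not match were not analysed here. Promoter windows of 300 bases came from RefSeq (GRCm38.p6), and no gene coordinates are given because no build is named for the table.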

Additional observations from a re-analysis of the deposited data

Results flagged for a closer look

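Y-linked genes had signal on the AAC array, which does not enter the comparison, far above their level on the sham array. Eif2s3y, a translation factor subunit encoded on Y, stood at 2.50 in sham, 2.72 in AAC + DAPA and 11.71 in AAC. Uty, a histone demethylase of the Y chromosome, stood at 3.09 and 2.96 on the compared arrays and 10.65 in AAC, and Kdm5d, another demethylase, at 2.97, 2.81 and 6.39. In all, 24 of 32 measured Y-linked genes exceeded both other arrays by 1.5-fold or more on the AAC array. The sham and AAC + DAPA arrays thus lay within 1.5-fold of each other in all 32 genes, while all 3 are labelled male.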

How the results depend on the processing

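No paired analysis was possible because each group has 1 array and no test was made. Leaving out a replicate was not possible for the same reason. With the threshold at 2-fold in place of 1.5-fold, which can only lower a count, 155 genes were higher and 152 lower, the clock had 3 lower, immediate early genes 5 lower, hypertrophy genes 1 lower, the sarcomere 2 higher, fatty acid oxidation 0 higher and 1 lower, the PPAR list 1 higher, oxidative phosphorylation 0 lower and interferon-induced genes 5 higher. The overall counts and the counts and medians of these 8 lists otherwise kept within 1.5 times of their value, or within the spread between probes. This held for centring, quantile normalisation, single probes, the brightest probe of a gene, X and Y kept, no limit on the level, the 25th percentile as the limit, and a limit on the mean of both arrays. Of the other values, 60 moved further, most of them at 2-fold. Ahsa1, Lipe, Gpx7 and Pdgfd, each lower by 0.59, no longer passed 1.5-fold after centring. Centring and quantile normalisation each left antioxidant enzymes with 1 lower gene and lipid droplets and adipocyte markers with 0, and the limit on the mean of both arrays left complement with 1 higher gene and took the skeletal muscle median to 0.35. The median over genes as the limit, added after seeing the data, moved neither count. No result changed sign. Over the 145 named genes, quantile normalisation shifted differences by −0.16 to 0.06 and centring by 0.01. No median could be had for neutrophil, mesothelium or liver, lung and kidney markers when the mean of both arrays had to pass the limit. The SD of the differences was 0.19 in the lowest and 0.43 in the highest bin of level, and no depth is known.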

Other observations

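Gene families outside the fixed lists were picked after their values were seen, so their counts are descriptions. Tubulins, the subunits of microtubules, were low in AAC + DAPA relative to sham, with 8 of 20 measured at least 1.5-fold lower, 0 higher and a median of −0.395 (log2), against a background of 3.42%. Among the genes described, 5.28% were lower. Tubb6 stood at 7.89, 6.27 and 6.17 in sham, AAC and AAC + DAPA, Tubb4b at 10.33, 7.89 and 8.68, Tuba4a at 15.37, 13.23 and 13.74 and Tubb5 at 11.60, 10.59 and 9.97. These 4 were more than 3-fold below sham. Tubulin genes are close in sequence, so probes may not separate them.

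Retinoid genes lay on both sides, 3 of 27 being higher and 2 lower. Besides Rbp7, the dehydrogenases Adh1 (8.22, 9.50 and 10.40) and Aldh1a1 (8.05, 9.32 and 9.39), which turn retinol to retinoic acid, were 4.53-fold and 2.53-fold above sham. Lrat, which stores retinol as esters, was 8.34-fold below sham (7.31, 4.17 and 4.25, the last under the median of its array), and the retinal reductase Dhrs3 1.87-fold below (11.78, 10.78 and 10.88). Of 22 iron genes, the transferrin receptor Tfrc (13.26, 11.46 and 10.33) and the ferritin light chain Ftl1 (11.92, 11.00 and 10.81) were lower, by 7.62-fold and 2.16-fold, and the mitochondrial iron importer Slc25a37 was higher (5.44, 7.16 and 6.28).

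Among 8 subunits that bring protein phosphatase 1 to glycogen, Ppp1r3b was lower (8.78, 9.23 and 7.72) beside Ppp1r3c, and Ppp1r3d was higher (7.57, 8.17 and 8.88). Cyclic nucleotide phosphodiesterases had 4 of 20 lower and 1 higher. Pde4a (10.29, 9.15 and 9.11), Pde4b (11.09, 9.98 and 9.95) and Pde3b (8.26, 7.39 and 7.19), which break down cAMP, were each over 2-fold below sham, while Pde1c (9.47, 11.96 and 10.78), which calcium and calmodulin activate, was 2.48-fold above it.

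On the X chromosome, which the comparison left out, 27 of 798 genes were higher and 20 lower, together 5.89%. Of all genes outside X and Y, 6.65% passed 1.5-fold, so the X share did not exceed the background. Mid1ip1, an activator of acetyl-CoA carboxylase, stood at 6.75, 8.87 and 8.37, the RNA sensor Tlr7 at 7.55, 9.48 and 8.69, and Alas2, which starts heme synthesis in red cells, at 7.63, 11.92 and 8.63. Lower were Sh3kbp1, an adaptor of receptor uptake (15.55 and 14.65), and Phka1, a subunit of muscle phosphorylase kinase (10.44, 9.48 and 9.66).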
